A study of Mus musculus with 34 samples.

Results

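Acetylation of lysine 27 on histone H3 (H3K27ac) was compared between embryonic stem cells of C57BL/6J (B6) mice and of DBA/2J (D2) mice, which are both inbred strains. The 6 libraries were chosen by their labels as H3K27ac chromatin immunoprecipitations from separate lines, out of 34 libraries in the study. B6 was represented by the lines B6 4-1, B6 4-4 and B6 5-1, and D2 by D2 2-9, D2 5-5 and D2 203, so n = 3 lines a strain throughout. Reads were counted over 96988 regions, of 345324 in the study's 2 region lists, and 96291 had enough reads to be tested. All lines were labelled with the genotype of their strain, no added allele was named, and they were grown alike, in 15% serum with leukaemia inhibitory factor, 1 µM PD0325901 (a MEK inhibitor) and 3 µM CHIR99021 (a GSK3 inhibitor), which hold mouse stem cells in a naive state. Chromatin was fixed with 1% formaldehyde for 10 min, cut with micrococcal nuclease and precipitated with an Abcam antibody. The p-values measure the spread between lines, and the labels do not say whether lines came from different embryos. H3K9me3 was measured in the same 6 lines and is set beside the acetylation values.

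H3K27ac is placed by the acetyltransferases EP300 and CREBBP and removed by histone deacetylases, and it marks active promoters and active enhancers. Promoter acetylation is shared by many cell types, whereas acetylation at distal enhancers is more often particular to a cell type and evolves faster. H3K9me3 marks heterochromatin, and in stem cells it is laid over endogenous retroviruses, zinc finger gene clusters and the methylated alleles of imprinted control regions by SETDB1, which TRIM28 brings to sites bound by KRAB zinc finger proteins.

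A region that overlapped the ±1000 bp around the start of a protein-coding transcript was classed as a promoter region (15797 regions, of which 15782 were tested, at 14523 genes), and every other region as distal (81191, of which 80509 were tested). Regions covered 244 Mb with a median width of 1470 bp. Levels are given as CPM, the read count scaled to the size of the library, and differences as log2 fold changes of D2 over B6, so that positive values are higher in D2. Regions with an adjusted p under 0.05 in edgeR's quasi-likelihood test are named as called. In bulk chromatin, fewer cells carrying the mark and less mark in each cell cannot be told apart.

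The sequences below are reference sequence at the promoters and distal regions with the largest differences, shown so that the kind of DNA at the extremes can be seen. They are the 200 bp before the start for 2 promoters in each direction, and the central 200 bp for the 2 distal regions in each direction. Coordinates are in mm10. The Gm10139 sequence lies wholly before its tested region and took no part in its values. Capitals mark CpG dinucleotides, except in the pair from chromosome 13, where they mark a run of 35 bases that both share.
Gm10139 promoter, higher in D2, chr13:65512478-65512677, plus strand: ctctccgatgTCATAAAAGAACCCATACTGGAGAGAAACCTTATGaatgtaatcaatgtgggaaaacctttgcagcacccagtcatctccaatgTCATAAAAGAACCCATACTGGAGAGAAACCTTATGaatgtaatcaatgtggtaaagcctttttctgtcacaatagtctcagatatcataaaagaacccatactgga
Region in Gm10324, higher in D2, chr13:66121300-66121499, plus strand: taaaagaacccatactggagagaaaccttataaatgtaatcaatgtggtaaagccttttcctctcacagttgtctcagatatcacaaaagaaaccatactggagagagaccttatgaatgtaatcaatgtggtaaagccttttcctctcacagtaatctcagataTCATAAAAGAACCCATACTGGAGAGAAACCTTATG
H2-T23 promoter, higher in D2, chr17:36032856-36033055, minus strand: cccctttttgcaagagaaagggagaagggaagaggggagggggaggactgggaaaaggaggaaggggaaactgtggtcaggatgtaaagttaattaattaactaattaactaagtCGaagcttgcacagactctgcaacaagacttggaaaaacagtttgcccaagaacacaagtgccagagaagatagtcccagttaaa
Region in an Arhgap10 intron, higher in D2, chr8:77448970-77449169, plus strand: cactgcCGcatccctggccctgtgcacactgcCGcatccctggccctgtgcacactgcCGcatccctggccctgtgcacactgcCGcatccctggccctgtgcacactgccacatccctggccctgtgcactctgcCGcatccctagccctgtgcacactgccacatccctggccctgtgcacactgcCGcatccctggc
Vmn1r1 promoter, higher in B6, chr1:182164487-182164686, minus strand: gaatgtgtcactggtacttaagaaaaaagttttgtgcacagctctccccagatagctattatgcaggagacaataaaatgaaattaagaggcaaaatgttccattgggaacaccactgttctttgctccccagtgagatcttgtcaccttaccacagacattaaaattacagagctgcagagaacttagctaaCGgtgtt
Trim12a promoter, higher in B6, chr7:104315464-104315663, minus strand: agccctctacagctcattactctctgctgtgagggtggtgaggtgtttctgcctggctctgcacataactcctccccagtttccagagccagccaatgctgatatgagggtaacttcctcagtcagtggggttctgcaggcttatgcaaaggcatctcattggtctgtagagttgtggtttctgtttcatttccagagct
Intergenic region nearest Vma21-ps, higher in B6, chr4:52542990-52543189, plus strand: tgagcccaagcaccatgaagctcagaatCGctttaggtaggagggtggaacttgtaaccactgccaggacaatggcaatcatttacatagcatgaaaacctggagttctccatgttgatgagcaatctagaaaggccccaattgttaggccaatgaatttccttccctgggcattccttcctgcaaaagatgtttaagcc
Intergenic region nearest Adam12, higher in B6, chr7:134246454-134246653, plus strand: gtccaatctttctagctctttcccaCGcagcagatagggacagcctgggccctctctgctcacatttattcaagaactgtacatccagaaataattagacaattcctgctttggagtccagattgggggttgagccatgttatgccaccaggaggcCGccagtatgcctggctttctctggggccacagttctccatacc
The 3 sequences of the D2-higher set from chromosome 13 and Arhgap10 were tandem repeats. The Gm10139 and Gm10324 sequences matched themselves at a shift of 84 bp in 85.3% and 92.2% of bases, which is the repeat length of C2H2 zinc finger coding arrays, and the marked run occurred 2 times in the first and 1 time in the second. The Arhgap10 sequence matched itself at a shift of 52 bp in 96.6% of bases and held 6 CpG. The 4 B6-higher sequences held 0 to 2 CpG and no such repeat, the best shift matching at most 38% of bases in any of the remaining 5 sequences. The D2 sequence of these places was not used here.

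The 6 libraries held 15444270 to 18272793 reads in regions, and chi-square per degree of freedom between lines of a strain was 1.45 to 2.14, where sampling noise alone gives 1, so no library was a copy of another. Of 13 fibroblast markers 8, the collagen genes Col1a1, Col1a2 and Col3a1 among them, had no promoter region. The summed level of the other 5 was 32.9 to 34.8 CPM in B6 and 47.6 to 50.01 CPM in D2, most of it from Vim, with a mean of 24.5 CPM in B6 and 38.7 CPM in D2, while the other 4 (Thy1, Twist1, Fbn1 and Dcn) were not called. Its part in other differences was not tested. The summed promoter level of 11 stem cell markers was 1824 to 2047 CPM in B6 and 1860 to 1946 CPM in D2, with overlapping strains. D2 203 had 8.47% of its reads on chromosome 11, against 7.49% to 7.74% in the other 5 lines, and the D2-higher calls on chromosome 11 are given with and without it. A further set of H3K27ac libraries, made with a Cell Signaling Technology antibody, repeats B6 5-1 and D2 5-5 only. Its libraries of 1 line had a chi-square per degree of freedom of 0.954 to 1.03, which is sampling noise, so it compares 2 of the same 6 lines, and its log2 fold changes are given without a test as "repeated libraries".

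H3K27ac differed between the strains in close to every second region. Of 96291 regions 47477 were called (49.3%), 23396 higher in D2 (24.3%) and 24081 higher in B6 (25%). In 44173 of the called regions all 3 lines of one strain lay above all 3 of the other, as they did in 53554 of all tested regions. A called difference of at least 2-fold (an absolute log2 fold change of 1 or more, here called large) was found in 11907 regions (12.4%).

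Promoters and distal regions differed in the direction and size of their calls. Of the promoter regions 7705 (48.8%) were called, 6065 of them higher in D2 (38.4% of promoters) and 1640 higher in B6 (10.4%). Of the distal regions 39772 (49.4%) were called, 17331 higher in D2 (21.5%) and 22441 higher in B6 (27.9%). The median log2 fold change was 0.17 over promoters and -0.09 over distal regions, so the lean of promoters towards D2 was made of many small differences. It depended on the scaling: D2-higher calls were 78.7% of promoter calls with factors from all regions, 75.2% after an offset for base composition, 47.5% with factors taken from promoters only and 47.3% with separate factors for each class. Over all regions the D2-higher share of calls was 49.3%, and 30.2% with factors from promoters, which shifts every log2 fold change by a median of -0.16. The share called depended on it too: promoters were called in 37.2% and distal regions in 52.4% with factors from promoters, and in 36.6% and 49% with separate factors. Over the 14523 genes with a promoter region, 40.5% were higher in D2 and 9.85% in B6 with factors from all regions, and 17.2% and 19.4% with factors from promoters.

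Large differences were mostly distal. They were found in 447 promoters (2.83%), 224 higher in D2 and 223 in B6, and in 11460 distal regions (14.2%), 4207 higher in D2 and 7253 in B6. The median absolute log2 fold change was 0.25 at promoters and 0.42 at distal regions. Promoters were measured more precisely, with a median count of 218 reads a library against 58.5 and a median SE of 0.10 against 0.18. The median SD of log2 values between B6 lines was 0.094 against 0.174. At a mean of 50 to 100 reads the median absolute log2 fold change was 0.33 at promoters and 0.40 at distal regions. At 200 to 500 reads it was 0.22 and 0.33. The part of precision in the gap was not tested. By place in the annotation, 53.4% of intergenic regions were called and 18.6% were large, whereas 44.8% of intronic regions were called and 12% were large. Regions that overlapped a coding exon at any point were called in 49.4% and large in 5.23%.

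**Figure D1:**
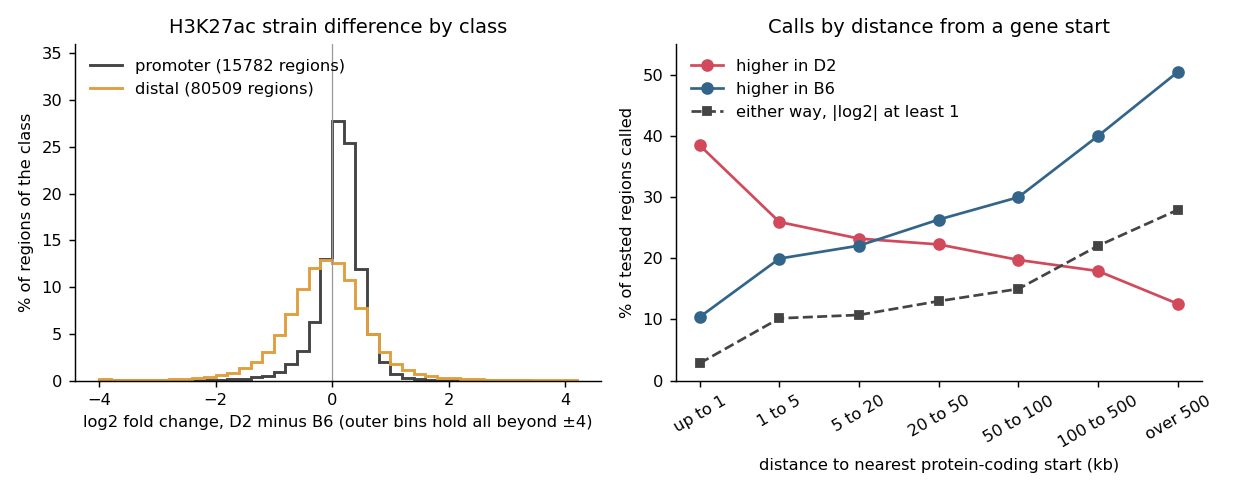
Left: share of tested regions by log2 fold change (D2 over B6) for promoter and distal regions. Right: percent of regions called higher in D2 or in B6 by distance to the nearest protein-coding start; D2-higher calls fall from 38.4% within 1 kb to 12.6% beyond 500 kb while B6-higher calls rise from 10.4% to 50.4%.

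The balance between the strains moved in steps with distance from genes. The share of regions higher in D2 fell from 38.4% within 1 kb of a start to 12.6% beyond 500 kb, and the share higher in B6 rose from 10.4% to 50.4%. The median log2 fold change was 0.17 within 1 kb, 0.06 at 1 to 5 kb, -0.13 at 50 to 100 kb, -0.30 at 100 to 500 kb and -0.48 beyond. Large differences rose from 2.83% to 27.9% over the same range. The gradient was present in each line: beyond 500 kb the median deviation from a region's mean over lines was 0.34, 0.19 and 0.16 (log2) in B6 4-1, B6 4-4 and B6 5-1, and -0.11, -0.25 and -0.28 in D2 2-9, D2 5-5 and D2 203. No B6 line overlapped a D2 line there.

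**Figure D2:**
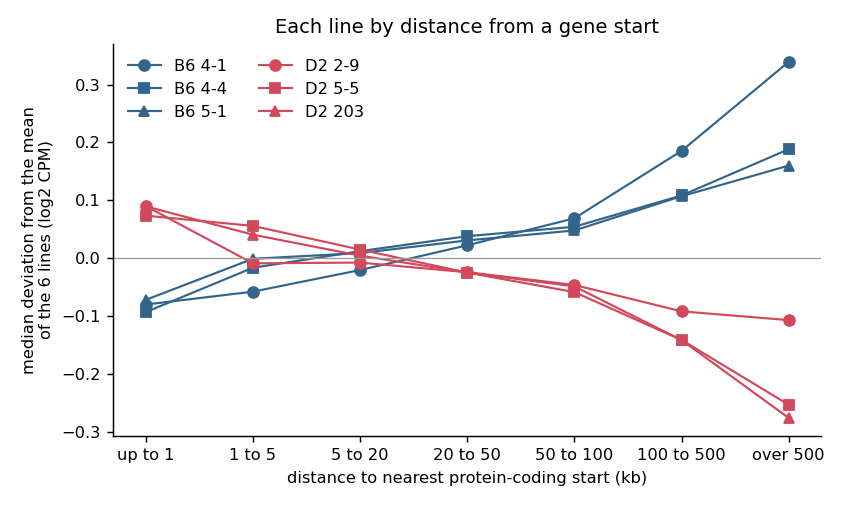
Median deviation (log2) of each of the 6 lines from the region's mean over lines, by distance to the nearest protein-coding start. The 3 D2 lines lie above the 3 B6 lines within 1 kb (0.07 to 0.09 against -0.09 to -0.07) and below them beyond 500 kb.

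The same pattern appeared in whole-library shares. Promoter regions took 37.2%, 37.2% and 37.6% of region reads in the B6 lines and 39.4%, 39.2% and 39.3% in the D2 lines. Regions over 100 kb from a start took 10.6%, 10.1% and 9.99% in B6 and 9.49%, 9.31% and 9.22% in D2, and regions over 75% repeat-masked took 2.45%, 2.59% and 2.41% in B6 and 2.25%, 2.04% and 2.01% in D2. In each of these 3 the strains did not overlap, at the smallest two-sided p that an exact permutation test of 3 against 3 can give (p = 0.1; 0.167 adjusted over the 25 shares compared). Regions of 10 kb or wider took 30.8% to 31.9% in B6 and 31.2% to 31.5% in D2, with overlap (exact p = 1). The repeat-masked share moved with the distal B6 lean, and among distal regions over 95% masked 39.2% were higher in B6 and 14.2% in D2. Its part in that lean was not tested, and neither was that of alignment to mm10, which is a B6 genome.

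Base composition set promoters apart from each other. With factors from all regions, promoters with an observed to expected CpG ratio over 0.6 gave 45.8% D2-higher and 3.15% B6-higher calls. Those with a ratio up to 0.2 gave 20% and 34.2%. These shares were not rerun with factors from promoters, which changed the balance of promoter calls. The lines also moved with base composition, B6 4-1 over the widest range: in the sixth of regions with the lowest GC content, the promoter deviation of B6 4-1 was 0.10, above every other line, and in the highest sixth it was -0.17, below every other line. D2 203 went from -0.05 to 0.14 and D2 2-9 from 0.02 to 0.13 between the same sixths. The SP/KLF motif GGGCGG, searched on both strands in the central 300 bp, was present in 27.9% of promoters, in 13.8% of the large D2-higher and 13.5% of the large B6-higher ones, and in 28.4% of those not called. Large differences were found in 14.5% of promoters with a CpG ratio up to 0.2 and in 1.32% of those over 0.6, so CpG-poor promoters differed by more.

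At distal regions the same GGGCGG was present in 9.43% of all, 5.7% of large D2-higher and 8.27% of large B6-higher regions. The octamer ATGCAAAT, bound by POU factors such as POU5F1, was present in 2.01% of distal regions, in 2.63% of the large B6-higher and 1.74% of the large D2-higher ones. The E-box CACGTG was present in 4.77%, with 3.21% and 5.11% in those groups, and the ESRRB motif TCAAGGTCA in 1.25%, with 1.39% and 0.808%. Over all tested regions the shares were 12.4% for GGGCGG, 1.88% for the octamer, 4.88% for the E-box and 1.18% for the ESRRB motif. None of the 4 motifs was present in most regions of any class.

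The share of regions called and the balance of directions both moved with width. Distal regions under 500 bp were called in 22%, mostly higher in B6 (19.1% against 2.9% higher in D2). At 1 to 2 kb the 2 directions were close (27.7% higher in B6 and 25.3% in D2), and at 5 to 10 kb 67.4% were called, 35.7% higher in B6 and 31.7% in D2. Large differences made up 15.7% of distal regions under 500 bp and 17.4% at 500 bp to 1 kb, and fell from there to 10.3% of those of 10 kb or wider. Among promoters the share called rose from 10.9% under 500 bp to 56.2% at 5 to 10 kb and was 54.1% in the 1732 of 10 kb or wider. Promoters under 500 bp were higher in D2 in 3.83% and higher in B6 in 7.02%, those of 2 to 5 kb in 45% and 8%, and those of 10 kb or wider in 33.4% and 20.7%. Width moves with reads: the median count rose from 17.2 in the narrowest distal class to 1176 in the widest and the median SE fell from 0.36 to 0.07, and the part of that in the share called was not tested.

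**Figure D3:**
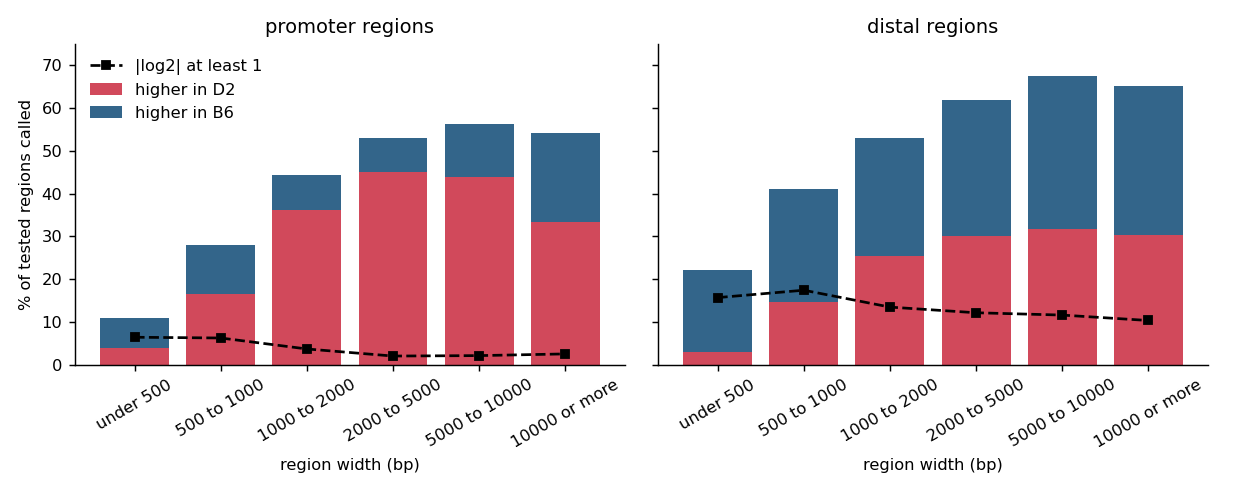
Percent of promoter (left) and distal (right) regions called higher in D2 and higher in B6 by region width, stacked, with a dashed line for called differences of at least 2-fold. Calls rise with width to 56.2% of promoters and 67.4% of distal regions at 5 to 10 kb, while large distal differences are 15.7% under 500 bp, 17.4% at 500 bp to 1 kb and 10.3% at 10 kb or wider.

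The promoters with the largest D2-higher differences belonged to a zinc finger cluster on chromosome 13, to the major histocompatibility locus and to a few single genes. The promoter of the predicted gene Gm10139 (chr13:65513173-65516557) had 2.4, 2.9 and 2.91 CPM in the B6 lines and 22.9, 27.2 and 27 CPM in the D2 lines, a log2 fold change of 3.24 ± 0.12 (SE; adjusted p = 2.39e-29). Its neighbours in the cluster, the predicted genes Gm10772 (chr13:66222519-66229079) and Gm10324 (chr13:66112071-66118617), had 7.13, 8 and 7.41 against 42.6, 46.8 and 46.1 CPM (log2 fold change 2.59 ± 0.09) and 12.2, 13.2 and 10.9 against 57.3, 55.7 and 57.7 CPM (2.24 ± 0.08), B6 lines first. The repeated libraries gave 5.89, 4.90 and 5.38. H3K9me3 was higher in D2 at these promoters as well (log2 fold change 1.10 ± 0.24, 1.07 ± 0.21 and 2.00 ± 0.32), so both marks had more reads in D2, and the part of copy number in them was not tested.

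The class I genes H2-T23 and H2-T24 lie side by side on chromosome 17. The promoter of H2-T23, which encodes the non-classical antigen-presenting molecule Qa-1 (chr17:36030927-36033048), had 1.48, 1.95 and 1.71 CPM in the B6 lines and 10.5, 9.98 and 10.5 CPM in the D2 lines, a log2 fold change of 2.59 ± 0.16 (SE; adjusted p = 2.48e-20). The promoter of H2-T24 (chr17:36019441-36021079) had 0.456, 0.756 and 1.08 against 5.07, 4.63 and 3.17 CPM in the same order, a log2 fold change of 2.49 ± 0.25. In contrast to the zinc finger cluster, H3K9me3 went the opposite way, at -3.32 ± 0.31 and -2.18 ± 0.35. H3K9me3 over H2-T23 measured 65.5, 41.3 and 41 CPM in the B6 lines and 8.23, 3.12 and 3.76 CPM in the D2 lines. All 3 D2 lines thus had more acetylation and less methylation at both genes.

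Single genes made up the rest of the D2-higher set. Stab2, an endothelial scavenger receptor for hyaluronan (chr10:87006646-87008269), had 1.5 ± 0.0188 CPM in B6 and 8.7 ± 0.654 CPM in D2 at its promoter (mean ± SD, n = 3), a log2 fold change of 2.52 ± 0.17, and 4.14 in the repeated libraries. Mmp1b, of the interstitial collagenase family (chr9:7387890-7392552), had 4.18 ± 0.263 CPM in B6 and 23.1 ± 2.61 CPM in D2 (2.46 ± 0.12). The odorant receptor gene Olfr45 (chr7:140678603-140681166) had 2.21 ± 0.121 CPM in B6 and 12 ± 1 CPM in D2 (2.44 ± 0.15), with H3K9me3 lower in D2, at a log2 fold change of -1.63 ± 0.18. Each was below 5 CPM in every B6 line. The named promoters were chosen among those without overlap between strains, so separate strains at them are no finding.

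The 3 largest B6-higher promoter differences were larger than any D2-higher one. The promoter of the pheromone receptor gene Vmn1r1 (chr1:182162071-182164939) had 193, 150 and 153 reads in the B6 lines and 2, 2 and 3 in the D2 lines, at least 56.8-fold lower in D2 against a floor of 3 reads a library. The repeated libraries gave -1.89 there. Trim12a and Trim5, neighbouring genes of the TRIM5 family of antiretroviral restriction factors on chromosome 7, were both lower in D2. Trim12a (chr7:104313299-104319301) had 54, 43 and 48.1 CPM in the B6 lines and 2.05, 1.54 and 1.15 CPM in the D2 lines, a log2 fold change of -4.94 ± 0.13 (SE; adjusted p = 4.61e-36), and Trim5 (chr7:104286605-104290411) had 25.8, 20.3 and 21 against 2.05, 2.7 and 2.88 CPM (-3.13 ± 0.13). Every D2 line was below 3 CPM at both genes and every B6 line above 20. H3K9me3 had few reads there, with 7, 7 and 7 in the B6 lines and 0, 1 and 3 in the D2 lines at Trim12a. At Trim5 it had 2, 1 and 4 against 0, 1 and 0. The part of copy number at these 2 genes was not tested.

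Btn2a2, a butyrophilin that dampens T cell responses, lay under the largest B6-higher difference among regions of 10 kb or wider (chr13:23487524-23504032). It had 115, 97.1 and 106 CPM in the B6 lines and 8.48, 10.1 and 9.45 CPM in the D2 lines, a log2 fold change of -3.50 ± 0.09 (SE; adjusted p = 5.50e-37), and -5.56 in the repeated libraries. Ifi202b, an interferon-inducible gene (chr1:173981226-173982501), had 4.55 ± 0.798 CPM in B6 and 0.51 ± 0.0677 CPM in D2 (-3.14 ± 0.26), and Serpina3m, a serine protease inhibitor gene (chr12:104381400-104386627), had 30.6 ± 3.36 CPM in B6 and 4.77 ± 0.229 CPM in D2 (-2.68 ± 0.11). The promoters of Gm21887 next to Mid1 on X (chrX:169990716-170009191) and of Gm47283 on Y (chrY:90762731-90784107) had almost the same values in every line, 229, 181 and 344 against 18.2, 31.7 and 39 CPM and 229.7, 182 and 353 against 20.5, 29.8 and 42.7 CPM. They lie at the ends of the sex chromosomes, and whether they share reads was not tested. The 2 log2 fold changes of -3.08 ± 0.13 and -3.03 ± 0.14 are therefore uncertain and count as 1 observation. The B6 lines also disagreed there, B6 5-1 being the highest and B6 4-4 the lowest.

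**Figure D4:**
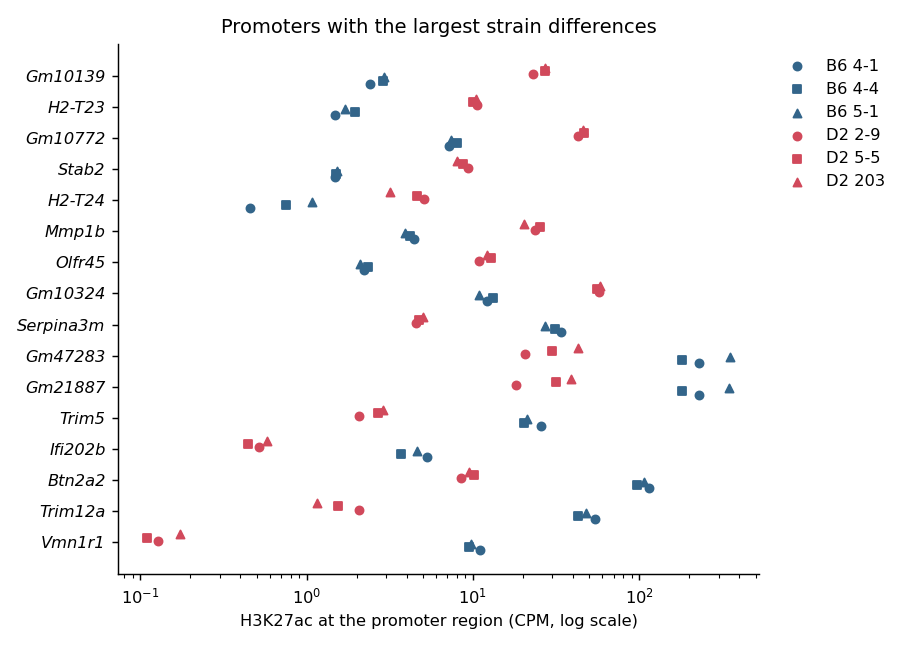
H3K27ac level (CPM, log axis) in each of the 6 lines at the 8 promoters with the largest called difference in each direction. The 16 were chosen among promoters without overlap between strains, and the widest gap is at Vmn1r1, with 9.44 to 11 CPM in B6 and 0.11 to 0.173 CPM in D2.

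At distal regions the D2-higher extremes again lay mostly in the zinc finger cluster of chromosome 13. A 434 bp region in Gm10324 (chr13:66121183-66121616) had 1, 8 and 4 reads in the B6 lines and 185, 196 and 202 in the D2 lines, a log2 fold change of 5.39 ± 0.24 (SE; adjusted p = 3.08e-26). Regions in Platr2 (chr13:65792848-65793400) and in Gm26754 (chr13:66387922-66388231) had log2 fold changes of 4.67 ± 0.20 and 4.63 ± 0.17, and one over Vmn2r-ps95 (chr13:65362882-65363558) of 3.95 ± 0.21. A region in an intron of Arhgap10 (chr8:77448308-77449831) had 1, 3 and 4 reads in the B6 lines and 83, 100 and 78 in the D2 lines, a log2 fold change of 4.91 ± 0.32. The repeated libraries gave only 0.88 for it. An intergenic region on Y (chrY:90724767-90733201) had 5.02, 4.16 and 8.55 against 74.5, 96.9 and 119.7 CPM, B6 first, with H3K9me3 also higher in D2 (2.66 ± 0.14).

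The B6-higher distal extremes were places where D2 had almost no reads. The region nearest Vma21-ps (chr4:52542103-52544076) had 145, 103 and 107 reads in the B6 lines and 0, 1 and 0 in the D2 lines, at least 40.6-fold lower in D2. The region nearest Adam12 (chr7:134244244-134248862) had 411, 286 and 371 reads in the B6 lines and 0, 0 and 4 in the D2 lines. The other 4 lay 446 kb from Gm12887 (chr4:122068541-122071653), 291 kb from 9530002B09Rik (chr4:122395636-122397842), 61.9 kb from Nlrp1b (chr11:71292591-71295144) and 19.75 kb from Hist1h4h (chr13:23509928-23511299). They were at least 74.6-fold, 52.1-fold, 66.8-fold and 40.2-fold lower in D2, in that order.

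Near absence of reads in 1 strain was found mostly in D2 among regions with a mean of at least 2 CPM in the other strain. With that condition, every D2 line had at most 3 reads in 40 tested regions (1 promoter and 39 distal). The same was so for B6 in 1 distal region. Of the 40, 11 lay on chromosome 7 and 8 each on chromosomes 14 and 4. Of the 40, 29 overlapped 28 regions of the study's other list, and H3K9me3 was low in D2 there too, with 557, 527 and 590 reads summed over the 28 in the B6 lines and 97, 114 and 89 in the D2 lines, although the D2 libraries were deeper in total (1981703 to 2559262 reads against 1487862 to 1687002). Both marks thus had few D2 reads at the same places. Deleted or diverged D2 sequence and a loss of both marks cannot be told apart from these counts.

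Among the wide distal regions, 3 intergenic ones led the D2-higher side. The region nearest Ust, a uronyl sulfotransferase gene (chr10:8548397-8562903), had 15.7, 15.6 and 15.3 CPM in the B6 lines and 132, 117 and 121 CPM in the D2 lines, a log2 fold change of 2.99 ± 0.08 (SE; adjusted p = 3.98e-36). H3K9me3 there was lower in D2, at a log2 fold change of -2.42 ± 0.20. The region nearest the major urinary protein gene Mup20 (chr4:61961230-61974006) had 11.7 ± 0.191 CPM in B6 and 90.3 ± 7.9 CPM in D2 and H3K9me3 at -1.95 ± 0.19, and the one nearest Impad1 (chr4:4548256-4560369) had 14.8 ± 0.97 CPM in B6 and 102 ± 12.4 CPM in D2 and H3K9me3 at -0.91 ± 0.16. In all 3 the marks went in opposite directions, and the repeated libraries gave 2.87, 3.06 and 2.85.

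Opposite directions were the common case where both marks differed. H3K9me3 was tested in 44797 regions and called in 34.7% (17.3% higher and 17.4% lower in D2). Of 3022 promoters with a value for both marks 596 were called for both: 251 had more H3K27ac and less H3K9me3 in D2, 198 the reverse, and the others more of both in 1 strain, so 75.3% were opposite. Of 17224 distal regions 4866 were called for both, 1394 and 1934 in the opposite combinations and 531 and 1007 higher for both in D2 and in B6, so 68.4% were opposite.

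Imprinted genes were a group of this kind. They are expressed from 1 parental allele, and their control regions carry DNA methylation and H3K9me3 on 1 parental allele, which need not be the silent one. Of 27 listed genes 18 had a promoter region, and 15 of them were higher in D2, 1 was higher in B6 and 2 were not called, with a median log2 fold change of 0.59. Over the promoters of all 14523 genes 40.5% were higher in D2, 9.85% were higher in B6 and the median was 0.17. The differences were moderate and even between genes: Peg3, a zinc finger regulator of growth (chr7:6725526-6733803), had 31.8, 27.7 and 31.6 CPM in the B6 lines and 55, 48.6 and 46.7 CPM in the D2 lines, a log2 fold change of 0.72 ± 0.08 (SE; adjusted p = 2.98e-11). Nnat, a neuronal proteolipid gene (chr2:157557360-157562414), had 9.59, 10.5 and 12.1 against 17.2, 20.4 and 16.5 CPM (0.75 ± 0.10), and Igf2r, the receptor that clears insulin-like growth factor 2 (chr17:12765604-12770916), had 12.2, 15 and 12.5 against 21.9, 21.8 and 22.8 CPM (0.75 ± 0.09).

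Other imprinted promoters followed within a narrow range. Mest, Impact, Plagl1, Zrsr1, Snrpn, Grb10, Gnas and Mcts2 had log2 fold changes of 0.71, 0.64, 0.62, 0.60, 0.58, 0.56, 0.52 and 0.40, all called. Peg10 and Sgce share 1 promoter region (0.46), so they count as 1 observation. Dlk1, a Notch ligand family gene, and Inpp5f were called at low levels (mean ± SD 1.19 ± 0.346 CPM in B6 and 2.24 ± 0.43 CPM in D2, and 0.808 ± 0.459 CPM in B6 and 1.56 ± 0.327 CPM in D2). The Inpp5f call was lost without B6 4-1 (0.57), D2 2-9 (0.83) or D2 203 (0.93), in DESeq2 (0.97) and with factors from promoters or for each class (0.80 in both). Cdkn1c, the cell cycle inhibitor p57, and Igf2 were not called (-0.19 ± 0.23 and 0.17 ± 0.19, SE), and Phlda2, which limits placental growth, was the only B6-higher member (-0.40 ± 0.13). The Phlda2 call was lost in DESeq2. The non-coding imprinted transcripts gave 1.23 ± 0.11 for Peg13, 1.11 ± 0.10 for Airn, 0.74 ± 0.07 for Kcnq1ot1 and 0.29 ± 0.10 for Meg3.

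H3K9me3 was lower in D2 over most of the same promoters, by more than H3K27ac was higher. Of the 13 imprinted promoters with an H3K9me3 value, 10 were lower in D2 (Peg10 and Sgce again sharing 1 region), 3 were not called and the median log2 fold change was -2.05, against 12.7% lower, 20.8% higher and a median of 0.13 over the 3022 promoters with both marks. At Mest H3K9me3 measured 117, 76.1 and 52.3 CPM in the B6 lines and 23.9, 18.7 and 7.52 CPM in the D2 lines (log2 fold change -2.29 ± 0.26, adjusted p = 2.97e-09). At Impact it measured 72.9, 41.3 and 63.6 CPM in the B6 lines and 4.94, 9.98 and 9.02 CPM in the D2 lines (-2.85 ± 0.27). At the non-coding transcripts that silence their clusters it measured 50.7, 42.4 and 32.8 CPM in the B6 lines and 5.76, 5.61 and 3.76 CPM in the D2 lines at Kcnq1ot1 (-3.02 ± 0.30) and 72.9, 51.1 and 63.6 CPM in the B6 lines and 13.2, 10.6 and 6.01 CPM in the D2 lines at Airn (-2.65 ± 0.25). No B6 line overlapped a D2 line at any of these 4. Of the other non-coding transcripts Peg13 had less H3K9me3 in D2 (-2.57 ± 0.28), and Meg3 was not called (-0.12 ± 0.24, adjusted p = 0.745), with overlapping strains. Of the 13, the 3 without an H3K9me3 call were Igf2r (-0.65 ± 0.29), Cdkn1c (0.81 ± 0.33) and Phlda2 (0.69 ± 0.42), and the last 2 were also without a D2-higher H3K27ac call.

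**Figure D5:**
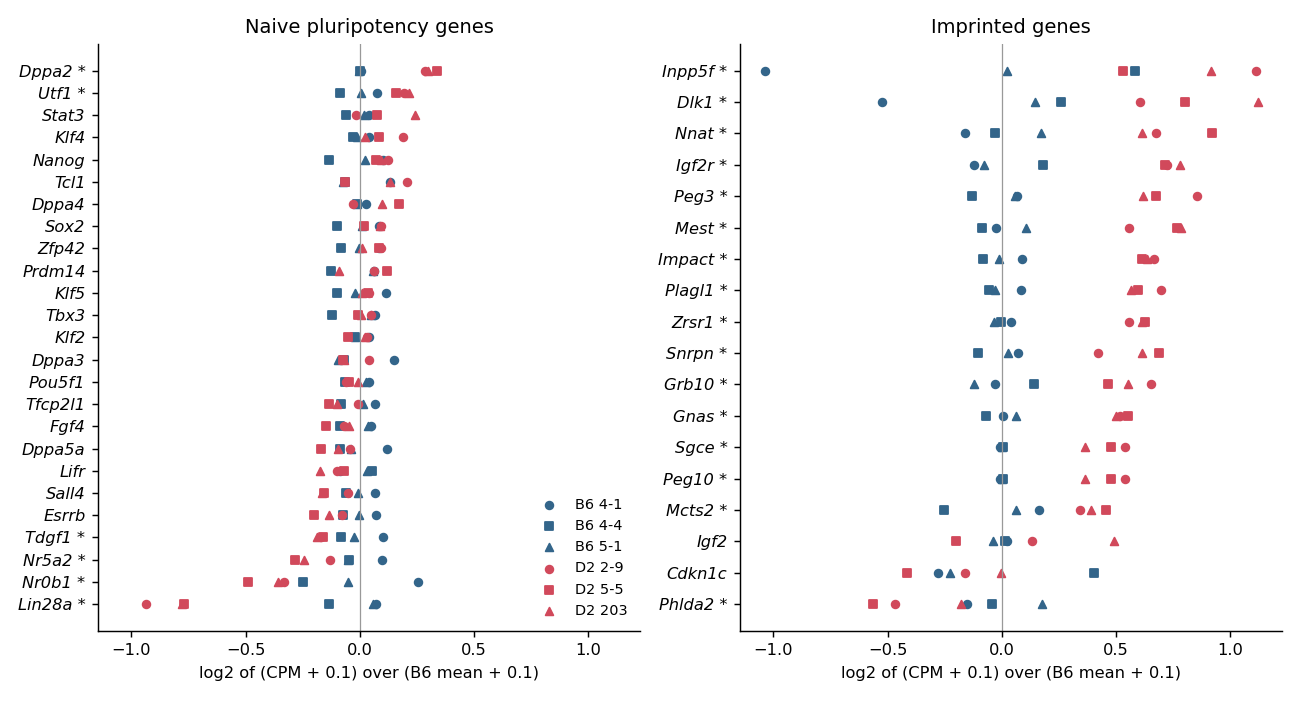
Level in each line relative to the B6 mean (log2 of CPM + 0.1 over the B6 mean + 0.1) at promoters of naive pluripotency genes and of imprinted genes, with stars at adjusted p under 0.05. With factors from all regions, the D2 lines lie close to the B6 lines at most pluripotency genes (19 of 25 not called) and above the B6 mean at most imprinted genes (15 of 18 called higher in D2).

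How many promoters of naive pluripotency genes were called depended on the scaling. Of 25 genes, all measured, 19 were not called, 4 were higher in B6 and 2 in D2, with a median log2 fold change of 0.00, against 9.85% higher in B6, 40.5% higher in D2 and a median of 0.17 over all genes. With factors from promoters 15 were higher in B6, 1 in D2 and 9 not called (median -0.16), against 19.4%, 17.2% and a median of 0.01 over all genes, and after the offset for base composition 8 were higher in B6 and 1 in D2. In the repeated libraries the median was 0.22, against 0.44 over all promoter regions, with Pou5f1 at 0.36, Sox2 at 0.66 and Klf4 at 0.71. At Pou5f1 the lines had 183, 170.3 and 182 CPM in the B6 lines and 171, 172 and 177 CPM in the D2 lines, a log2 fold change of -0.04 ± 0.06 (adjusted p = 0.612). Nanog and Sox2, which act with POU5F1 at the centre of the pluripotency network, had 0.09 ± 0.06 and 0.07 ± 0.06, and the orphan receptor gene Esrrb -0.14 ± 0.06, and none of these passed the test with factors from all regions. The strains overlapped at Pou5f1, Nanog and Sox2.

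Called with factors from all regions were 6 genes. Lin28a, which blocks maturation of the let-7 microRNAs (chr4:134014982-134020021), had 32.5, 28.1 and 32.2 CPM in the B6 lines and 16.1, 18.1 and 18 CPM in the D2 lines, a log2 fold change of -0.83 ± 0.09 (SE; adjusted p = 7.27e-12), and -0.97 in the repeated libraries. Nr0b1, an orphan nuclear receptor gene on X, had 50.2, 35.4 and 40.5 against 33.3, 29.9 and 32.8 CPM (-0.40 ± 0.09), and Nr5a2 and Tdgf1 were higher in B6 by less (-0.22 ± 0.07 and -0.17 ± 0.06). Dppa2, which primes bivalent promoters, had 163, 163 and 163 against 199, 206 and 201 CPM (0.31 ± 0.06) and Utf1 69.7, 62.3 and 66.5 against 75.6, 73.9 and 76.8 CPM (0.19 ± 0.07). The Nr5a2 call was lost without D2 5-5 (-0.18), that of Tdgf1 without B6 4-1 (-0.12) or D2 203 (-0.16), and that of Utf1 without B6 4-4 (0.15) or B6 5-1 (0.19). The Utf1 call was also lost with the offset for base composition (0.14) and with factors from promoters or for each class (0.03 in both). Of these 6 only Lin28a differed by more than 1.5-fold, and in the repeated libraries Nr0b1 and Tdgf1 had the opposite sign (0.28 and 0.07).

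At promoters of primed pluripotency and early lineage genes the counts were near those over all genes. Of 21 genes 19 were measured, 8 higher in D2, 3 higher in B6 and 8 not called (median 0.14), against 40.5%, 9.85% and a median of 0.17 over all genes. With factors from promoters 6 were higher in D2 and 4 in B6. Mixl1 and Sox1, which mark mesendoderm and neural ectoderm, had 3.31, 4.41 and 3.54 against 5.46, 7.06 and 7.43 CPM (0.83 ± 0.15) and 5.19, 7.24 and 5.32 against 11.9, 9.54 and 9.85 CPM (0.82 ± 0.13), and Pou3f1, of the primed state, 2.17, 2.46 and 2.22 against 4.24, 3.36 and 3.98 CPM (0.75 ± 0.19). The de novo DNA methyltransferase genes went in opposite directions. Dnmt3b (chr2:153647701-153654727) had 17.9, 18.4 and 22.5 CPM in the B6 lines and 30.8, 32.5 and 32 CPM in the D2 lines, a log2 fold change of 0.70 ± 0.09 (SE; adjusted p = 1.16e-09). Dnmt3a (chr12:3883845-3894116) had 50.2, 49 and 54.3 CPM in the B6 lines and 31.4, 29.9 and 30.7 CPM in the D2 lines, a log2 fold change of -0.74 ± 0.07 (SE; adjusted p = 3.09e-12), and the repeated libraries gave 1.24 and -1.22. The Dnmt3a value is for the promoter with the most reads, and its 2 upstream promoter regions were higher in D2 (0.78 and 0.52). Fgf5, a marker of the primed epiblast, did not pass the test (-0.00 ± 0.18).

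Markers of other cell types were called in both directions, in small lists to be read against 40.5% higher in D2 and 9.85% higher in B6 over all genes. Of 8 measured primitive endoderm genes 2 were higher in D2 and 1 in B6, with Col4a1 and Col4a2, which share 1 region, at 0.46 ± 0.11 and Sox7 at -0.78 ± 0.15. Of 8 trophoblast genes 2 were higher in each strain, among them Cdx2 (0.40 ± 0.10), the trophectoderm master regulator, in D2 and the keratin gene Krt8 (-0.86 ± 0.14) in B6. The call of Ascl2, the other D2-higher trophoblast gene, was lost without B6 4-1 (0.25) or D2 2-9 (0.26), in DESeq2 (0.33), with the offset for base composition (0.20) and with factors from promoters or for each class (0.16 in both). Of 6 neural genes 3 were higher in D2 and 1 in B6: Olig2, an oligodendrocyte lineage factor (chr16:91219001-91227013), had 42.3, 36.8 and 37 CPM in the B6 lines and 11.8, 14.4 and 13.9 CPM in the D2 lines, a log2 fold change of -1.53 ± 0.09 (SE; adjusted p = 2.24e-21), the largest in these marker lists. The D2-higher call of Neurog1, a neural list member, was lost without B6 4-1 (0.23), B6 4-4 (0.41) or D2 2-9 (0.31) and in 6 other settings, at 0.24 to 0.40. The single D2-higher fibroblast marker was Vim (0.66 ± 0.08), an intermediate filament gene that stem cells also transcribe. Of 10 genes of the 2-cell-like state only Duxf3 had a promoter region (-0.36 ± 0.13), a call lost without B6 4-4 (-0.23) or D2 2-9 (-0.30) and in DESeq2 (-0.36).

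Germline genes that stem cells keep silent were called for H3K9me3 wherever it had a value. Of 16 genes 8 had a promoter region, 1 higher in D2, 2 higher in B6 and 5 not called, against 40.5% and 9.85% over all genes. Sycp3, a component of the meiotic synaptonemal complex (chr10:88459105-88461036), had 7.13, 7.93 and 6.52 CPM in the B6 lines and 1.99, 2.54 and 2.25 CPM in the D2 lines, a log2 fold change of -1.66 ± 0.16 (SE; adjusted p = 1.17e-12). Mael, of the piRNA pathway, had -1.29 ± 0.42 at very low levels, a call lost without D2 5-5 (-1.09) or D2 203 (-1.12) and with the offset for base composition (-0.96), and Hormad1, a meiotic chromosome axis gene, 0.49 ± 0.13. H3K9me3 was higher in D2 at all 6 with a value (Dazl, Sycp1, Sycp3, Syce1, Stk31 and Hormad1), with a median log2 fold change of 0.96, against 20.8% higher, 12.7% lower and a median of 0.13 over the 3022 promoters with both marks. At Hormad1 it measured 18, 15.2 and 12.3 CPM in the B6 lines and 37, 51.8 and 43.6 CPM in the D2 lines (1.55 ± 0.24), and at Sycp3 12.7, 12 and 11.3 CPM in the B6 lines and 16.5, 22.5 and 23.3 CPM in the D2 lines (0.80 ± 0.29). The direction of H3K9me3 at these 6 was the reverse of that at 10 of the 13 imprinted promoters.

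Promoters of heterochromatin, acetylation and housekeeping genes were more often higher in D2 than in B6 with factors from all regions, as all promoters were, and more often higher in B6 with factors from promoters (8 against 4 heterochromatin, 4 against 3 acetylation and 5 against 2 housekeeping genes). Over all genes 40.5% were higher in D2 and 9.85% in B6. Of 22 heterochromatin writers and readers 9 were higher in D2 (Uhrf1 and Kdm4b sharing 1 region), 2 in B6 and 11 not called (median 0.12). Suv39h2 and Ehmt1, both H3K9 methyltransferase genes, had 17.9, 20.4 and 17.3 against 29.3, 28.9 and 30.6 CPM (0.67 ± 0.08) and 21.5, 18.4 and 21.6 against 31.5, 32.4 and 30.3 CPM (0.61 ± 0.08). Trim28, the KRAB corepressor, had 151, 144 and 146 against 191, 177 and 189 CPM (0.34 ± 0.06), whereas Cbx5, which encodes the H3K9me3 reader HP1 alpha, and the histone chaperone gene Daxx were higher in B6 (-0.18 ± 0.07 and -0.15 ± 0.06). Of 20 acetylation genes 10 were higher in D2, 2 in B6 and 8 not called (median 0.18), with the deacetylase Hdac6 at 0.59 ± 0.10, the acetyl-lysine reader Brd2 at 0.44 ± 0.07 and the coactivator Ncoa3 at -0.19 ± 0.06. None of the 12 called acetylation genes differed 2-fold. When 1 line was left out, B6-higher heterochromatin calls numbered 0 (without B6 4-1 or B6 5-1) to 5 (without B6 4-4). The Kat6a call (0.39) was lost without B6 4-1 (0.32) and with factors from promoters or for each class (0.23 in both), and that of the demethylase gene Kdm4a (0.35) with separate factors (0.18). Of 15 housekeeping genes 4 were higher in D2, 1 in B6 and 10 not called (median 0.09), with Actb at 0.43 ± 0.06 and Rplp0 at -0.26 ± 0.07. The Ppia call (0.30) was lost with factors from promoters or for each class (0.14 in both).

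Genes with well-known allele differences between the strains gave 3 D2-higher, 2 B6-higher and 2 uncalled promoters, of 11 listed, with 40.5% higher in D2 and 9.85% in B6 over all genes. Nnt, the mitochondrial transhydrogenase gene in which B6 carries an internal deletion (chr13:119405539-119416028), had 60.5, 47 and 56.3 CPM in the B6 lines and 24.2, 22.6 and 23.7 CPM in the D2 lines, a log2 fold change of -1.22 ± 0.08 (SE; adjusted p = 9.19e-19). Its promoter was more acetylated in the strain with the deletion. Glo1, which detoxifies methylglyoxal and lies in a segment known to be duplicated in D2 (chr17:30588200-30614524), had 141, 125 and 151 CPM in the B6 lines and 245, 272 and 264 CPM in the D2 lines, a D2 over B6 fold of 1.87. Myo5a, the myosin gene of the dilute coat colour of D2, had 11.3, 12.3 and 10.4 against 20.5, 22.6 and 20.7 CPM (0.91 ± 0.10), and Gpnmb, which carries a D2 nonsense allele, 10.9, 11.3 and 12.7 against 9.5, 8.77 and 8.93 CPM (-0.36 ± 0.11). The Gpnmb call was lost without B6 5-1 (-0.29). Ahr and Gabra2 were not called (0.17 ± 0.09 and 0.36 ± 0.23).

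Some histocompatibility genes besides the H2-T pair were higher in D2. Of 18 listed genes 14 had a protein-coding promoter region, 8 higher in D2 and 6 not called (median 0.51), against 40.5% higher in D2 and a median of 0.17 over all genes. Tap1 and Psmb9 share 1 region, so they count as 1 observation. H3K9me3 was higher in D2 at 4 of the 7 with a value (H2-D1, H2-Q6, H2-Q7 and H2-M3, none of them called for H3K27ac), lower at H2-T23 and H2-T24 and not called at H2-Q4 (median 0.86). After the H2-T pair came H2-T22 with 4.39, 4.72 and 5.51 against 8.86, 9.59 and 10.03 CPM (0.97 ± 0.13), the peptide transporter gene Tap2 with 3.65, 3.71 and 3.61 against 7.64, 6.56 and 6.69 CPM (0.92 ± 0.15) and H2-Q10 with 2.97, 2.33 and 3.04 against 5.01, 5.02 and 4.84 CPM (0.83 ± 0.17). H2-K2, annotated as non-coding, was the exception, with 2 promoter regions higher in B6 (-0.65 ± 0.17 and -2.99 ± 0.14). The strains carry different class I haplotypes with different gene numbers, and reads from near-identical copies may be split, so these values are uncertain.

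Glutathione S-transferase genes, which conjugate electrophiles, were more often higher in B6 than in D2 in the 6 lines. Of 24 genes 18 were measured, 7 higher in B6, 3 higher in D2 and 8 not called, with a median log2 fold change of -0.31, against 9.85% higher in B6, 40.5% higher in D2 and a median of 0.17 over all genes. The repeated libraries gave 9 of 18 above 0 and a median of 0.02, against 0.44 over all promoter regions. Gsto1 (chr19:47850153-47856796) had 43.5, 38.2 and 40.5 CPM in the B6 lines and 18.7, 18.5 and 16.3 CPM in the D2 lines, a log2 fold change of -1.19 ± 0.08 (SE; adjusted p = 4.27e-18), and its neighbour Gsto2 8.04, 7.68 and 9.5 against 5.78, 4.74 and 4.73 CPM (-0.73 ± 0.14). Gstp2 and Gstm2 had -0.99 ± 0.12 and -0.77 ± 0.14, whereas Gsta4 was higher in D2 (0.32 ± 0.06). H3K9me3 was higher in D2 at Gsto1 (1.48 ± 0.38), Gsto2 (2.11 ± 0.24) and Gstm2 (2.03 ± 0.48), the 3 called of 6 with a value.

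Differences came in neighbourhoods. Between adjacent tested regions less than 2 kb apart the log2 fold changes had r = 0.75 over 35677 pairs, falling to 0.44 at 5 to 10 kb, 0.22 at 20 to 50 kb and 0.12 at 100 kb or more. These are descriptions, since adjacent regions share the same 6 libraries and can be pieces of 1 domain. When a region was large, the next within 2 kb was large in 55.7%, and when both were large they had the same direction in 99.4%, against 74.1% at 100 kb or more. Strongly changed promoters had neighbours of the same sign: of the 968 called distal regions within 50 kb of the 224 large D2-higher promoters 846 (87.4%) were higher in D2, and of the 1014 near the 223 large B6-higher promoters 860 (84.8%) were higher in B6, whereas of all 39772 called distal regions 17331 were higher in D2 and 22441 in B6.

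On the scale of 2 Mb large differences were spread over nearly all windows, with high shares in a few. Over 1119 windows with at least 20 regions the share of large differences had a median of 11.2% and quartiles of 7.02% and 18%, 13 windows had none, 73 reached 30% and 11 reached 50%. The highest was 94 to 96 Mb on chromosome 5, where 31 of 39 regions were large, all higher in B6 (median log2 fold change -1.37), over predicted genes of the Gm3106 and Gm3139 kind. At 42 to 44 Mb on chromosome 14, with the ribonuclease genes Ang5, Ear1 and Ear10, 44 of 63 were large, with 1 of these higher in D2 (median -1.48). At 64 to 66 Mb on chromosome 13, with 20 genes, Gm10139, Zfp367 and Zfp369 among them, 105 of 163 were large and 93 of these higher in D2 (median 1.43). The distal end of Y at 90 to 92 Mb had 24 large of 34, 15 higher in D2, and the secretoglobin cluster at 32 to 34 Mb on chromosome 7 had 18 of 28, 6 higher in D2 (median -0.88, but 0.02 in the repeated libraries). The part of copy number and of reads split between similar genes in these windows was not tested.

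At the other end 13 windows had no large difference. The S100 calcium-binding protein cluster at 90 to 92 Mb on chromosome 3 had 0 of 97 regions, 104 to 106 Mb on chromosome 3, with Rap1a and Wnt2b, 0 of 72, and 72 to 74 Mb on chromosome 13, with the telomerase gene Tert and the Irx2 and Irx4 homeobox genes, 0 of 58. On X, 104 to 106 Mb, with Atrx, had 0 of 61 and 48 to 50 Mb 0 of 53. Smaller differences were present in these 5 windows, where 25.9% to 38.1% of regions were called. By chromosome, large differences were found in 51% of the 157 regions on Y, whose median repeat-masked share was 100%. They were found in 16.5% on chromosome 14, 16% on chromosome 13 and 8.75% on chromosome 11. Of the 737 on chromosome 13, 105 lay at 64 to 66 Mb, and in the next 2 Mb 55.7% of 244 regions were large.

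The share of reads differed without overlap between the strains on 12 of 21 chromosomes, all by less than 0.4 percentage points. Chromosome 13 held 4.71%, 4.62% and 4.62% of region reads in the B6 lines and 5.01%, 5.07% and 5.01% in the D2 lines. Chromosome 17 held 4.78%, 4.81% and 4.83% against 5.05%, 5.1% and 5.08%, and chromosome 4 the reverse, with 7.3%, 7.32% and 7.38% against 6.99%, 7.04% and 6.99%. Each of the 12 reached the smallest p that the exact permutation test can give (two-sided p = 0.1; 0.167 adjusted). The 1820 D2-higher calls on chromosome 11 became 1345 without D2 203 and 2011 without D2 2-9, and 1534 to 1704 without any one of the other 4 lines.

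The repeated libraries had the same direction at most large differences. Of the large D2-higher regions 99% of 203 promoters and 95.3% of 2839 distal regions were positive there, and of the large B6-higher ones 93.4% of 183 and 96% of 5494 were negative. Among regions that were not called the sign was shared by 71.2% of promoters and 61.3% of distal regions. The median log2 fold change in the repeated libraries was 0.44 over promoters and -0.12 over distal regions, against 0.18 and -0.08 for the same regions in the 6 lines. Since B6 5-1 and D2 5-5 are among the 6, this adds no line. It shows how far other libraries, with another antibody and another region list, gave the same values in the same lines.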

How the data were processed

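The authors deposited tables of raw read counts per region. The study's H3K27ac table of separate lines has a region list of its own, and its column names say that duplicate reads were removed. Per the submitters' processing notes the tools were Trimmomatic 0.39, HISAT2 2.2.1, MACS 1.4.2, bedtools 2.9.2 and edgeR, with build mm10. How the region list was merged is not given in the sources used here. Region starts were read as counted from 0. Columns were matched to lines by library name, and 2 columns that match no label were not used.

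Counts were filtered (filterByExpr, minimum count 10, minimum total 15), scaled by TMM and tested with edgeR 4.0.16 (R 4.3.3) by quasi-likelihood F-test, with Benjamini-Hochberg adjustment over all 96291 regions; SE is the log2 fold change over the root of F. CPM uses the scaled totals. H3K9me3 was fitted alike on the study's other region list and joined at the largest overlap of at least 1 bp. Promoters came from GENCODE M21 on GRCm38, on which no region ran past a chromosome end. Named regions are, among called regions without overlap between strains and at 2 CPM or more in the higher strain, the 8 promoters, 6 distal regions and 3 regions of 10 kb or wider with the largest change in each direction, the 5 windows of 2 Mb at each end, and up to 4 called members a gene list, with uncalled members of some. Members and lists were chosen with earlier results of these data known. The scripts were checked on simulated counts. The alternatives were other scalings, filters, DESeq2 1.42.0, a replicate block, other promoter windows, autosomes only and leaving out each line.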

Additional observations from a re-analysis of the deposited data

How the results depend on the processing

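Calls over all regions numbered 47477 as reported, 47235 with library totals, 47637 without a filter, 44544 at a mean of at least 20 reads, 46568 on autosomes, 35919 with DESeq2's Wald test and 40681 to 46596 when 1 line was left out. With factors from promoter regions, chosen after seeing the data, D2-higher calls fell to 14526 over all regions, to 2786 at promoters and to 1077 on chromosome 11, and B6-higher promoter calls rose to 3084. Separate factors for promoters and distal regions gave 2728 D2-higher and 3041 B6-higher promoter calls. With starts ±2500 bp as the promoter window, 749 promoters were large. The other reruns of these counts, which cover all regions, promoters, distal regions, large differences, chromosome 11 and imprinted genes, stayed within 1.5 times the reported value. Counts by width, distance, CpG ratio and window, and of H3K9me3, were not rerun. Imprinted D2-higher calls were 14 or 15 in each setting run on them, which leaves out the other promoter windows, and their median was 0.43 with factors from promoters.

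With the replicate number as a block, 47711 regions were called. The numbers do not pair the lines (r of same-numbered deviations 0.05, -0.06 and 0.05).

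Of 1289 values of 81 named results under 16 settings, 1247 kept their direction and call, 42 lost the call and 0 reversed. Among the 81, the lost calls were of Neurog1, Inpp5f, Ascl2, Utf1, Duxf3, Mael, Kat6a, Ppia, Tdgf1, Kdm4a, Gpnmb and Nr5a2, and their cause was not tested. Calls outside the 81 could be lost too. That of Phlda2 was lost in DESeq2, and those of Cbx5 and Daxx in some fits with a line left out. Precision was lowest in narrow regions, with a median SE of 0.36 in distal regions under 500 bp, at a median of 17.2 reads a library.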

Other observations

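Several gene families had promoters that moved as a group; they were picked after their values were seen, so the counts are descriptions, beside 38.4% of all promoters higher in D2, 10.4% higher in B6 and 2.83% large. All 7 promoter regions of kallikrein protease genes on chromosome 7 were called higher in B6 and 6 of them were large. Klk15 (chr7:43931045-43932957) had 6.45, 5.73 and 5.95 CPM in the B6 lines and 1.16, 0.937 and 1.33 CPM in the D2 lines, a log2 fold change of -2.41 ± 0.20, and Klk10 (chr7:43779632-43782626) had 16.1, 13.3 and 15.2 against 3.98, 5.02 and 5.13 CPM (-1.65 ± 0.12). All 5 promoter regions of the peptidylarginine deiminase genes Padi2, Padi3 and Padi4 on chromosome 4 were higher in B6, with Padi4 at 29, 27.7 and 29.2 against 13.8, 13 and 13.5 CPM (-1.09 ± 0.09). Of these 5 calls 3 were kept without B6 4-1, D2 2-9 or D2 203. Of 12 keratin promoter regions 7 were higher in B6 and 5 were not called. Schlafen genes, which are interferon-inducible growth regulators on chromosome 11, went the other way: 5 of 6 regions were higher in D2, with Slfn8 (chr11:83010913-83022676) at 14.9, 17.1 and 16 CPM in the B6 lines and 79.8, 58.3 and 72.4 CPM in the D2 lines, a log2 fold change of 2.13 ± 0.09. Others went in both directions: of 5 Nlrp promoter regions 1 was higher in D2 and 2 in B6, and of 39 odorant receptor promoter regions 9 were higher in D2 and 15 in B6.

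Promoters of 1 gene could differ in opposite directions. Of 2661 genes with 2 or more tested promoter regions 16 had calls of at least 0.5 (absolute log2 fold change) in both directions, chosen after values were seen. In Mtus1, a microtubule-associated tumour suppressor gene, the region at chr8:41034821-41043372 had a log2 fold change of 0.63 and that at chr8:41110143-41116114 one of -1.04. In Eps8, an actin capping protein gene, the region at chr6:137570320-137572212 had -1.20 and that at chr6:137646814-137650815 had 0.55. Dnmt3a is among the 16, and 4933430I17Rik and Pole3 share the same regions and count as 1 observation.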
